A study of Ovis aries with 32 samples.

Results

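The genes described here encode the nuclear subunits of the mitochondrial respiratory chain, complexes I to V, in cultured sheep perirenal preadipocytes before and after differentiation to adipocytes. They were chosen by name: gene names beginning with NDUF and a letter A, B, C, S or V and a number, SDHA to SDHD, names beginning with UQCR, CYC1, COX4 to COX8 and names beginning with ATP5, without COX7A1, a muscle and brown fat isoform that was kept as a marker. The rule found 66 of the 21271 gene IDs in the table, carrying 62 names and 98 transcripts. Of these, 58 reached a summed value of 10 in at least 4 of the 32 libraries and were tested together with 12737 genes in all. The tested members were 30 of 31 for complex I, 1 of 1 for complex II, 7 of 7 for complex III, 7 of 11 for complex IV and 13 of 16 for complex V.

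The cells came from perirenal fat of near-term singleton fetuses of Columbia-Rambouillet ewes. Growth-restricted fetuses came from ewes kept at raised ambient temperature in mid gestation, which limits growth of the placenta, and control fetuses from ewes at normal temperature. Preadipocytes of control males (MC), control females (FC), growth-restricted males (MFGR) and growth-restricted females (FFGR) were sequenced, and so were the same 4 kinds of cells after differentiation to mature adipocytes in culture (MCD, FCD, MFGRD and FFGRD). Each of the 8 groups had 4 libraries of total RNA, with normalised values summing to between 9.52 M and 21.22 M per library. The labels do not say that the 4 libraries of a group came from 4 animals, so the p-values measure the spread between these libraries, which may be partly technical. All values come from cell pools grown in culture, in which fewer cells of a type and less RNA per cell cannot be told apart.

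The respiratory chain sits in the inner mitochondrial membrane. Complex I and complex II take electrons from NADH and succinate, complex III passes them through cytochrome c to complex IV, which reduces oxygen, and complex V uses the resulting proton gradient to make ATP. Most subunits are encoded in the nucleus and a small set in mitochondrial DNA. White adipocytes use the chain to support lipid synthesis, and brown adipocytes, which are abundant in the perirenal depot of fetal lambs, use it to make heat through uncoupling protein 1.

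The labelled cell stages were checked against marker genes. All 6 adipocyte markers tested were called higher in the differentiated libraries over the 4 groups, with PLIN1, the lipid droplet coat protein, at 9.62 to 35.7 in the 16 preadipocyte libraries and at 19.0 to 5936 in the 16 differentiated ones. FCD replicate 4 was the exception: its PLIN1 value was 19.0 and its ADIPOQ value 8.59, within the preadipocyte range. The preadipocyte and fibroblast markers did not fall in all 4 kinds of cells. Their mean log2 deviation went from 0.366 to -0.468 in control males and from 0.184 to -0.043 in control females. It rose from -0.032 to 0.283 in growth-restricted males and from -0.386 to 0.096 in growth-restricted females. The SD within groups was between 0.261 and 0.984. Of the other cell types the cultures could hold, the defining endothelial gene CDH5 stayed at or below 2.31 in every library, and the leukocyte gene PTPRC at or below 4.45 in every library but FFGR replicate 4, where it was 55.8. Over the 5 endothelial markers the summed value was between 5.84 and 286 per library, the highest in FCD replicate 2. Over the 5 macrophage and leukocyte markers it was between 38.95 and 976, and over the 4 muscle markers between 17.49 and 2380. The mean log2 deviation of the leukocyte list was higher in each differentiated group. It went from -1.124 to 0.603 in control males and from 0.401 to 0.423 in growth-restricted females. DES, a muscle filament gene, and PAX8, a kidney and thyroid transcription factor, were lower in differentiated than in preadipocyte libraries (log2 fold changes -3.43 and -3.01, limma adjusted p = 4.6e-05 and 2.04e-06), while MYOD1 and MYOG were at 0 in all libraries but MFGRD replicate 1. The part of these cells in the values below was not tested.

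The level of the subunit genes differed widely between libraries of the same group. For each library, the mean log2 deviation of the 58 members from their 32-library means was between -0.763 in FC replicate 3 and 1.85 in FFGRD replicate 3. In 9 libraries it lay between 0.454 and 1.85, and in the other 23 between -0.763 and 0.135. The 9 were MCD replicates 2 and 4, MFGR replicate 1, MFGRD replicate 1, FC replicate 2, FCD replicate 2, FFGR replicates 2 and 3 and FFGRD replicate 3. MC was the one group with no such library, MCD and FFGR had 2 each, and each of the other 5 groups had 1. All 5 complexes showed the same split, from 0.313 to 1.81 against -0.698 to 0.158 for complex I and from 0.513 to 1.91 against -0.851 to 0.251 for complex V.

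**Figure D1:**
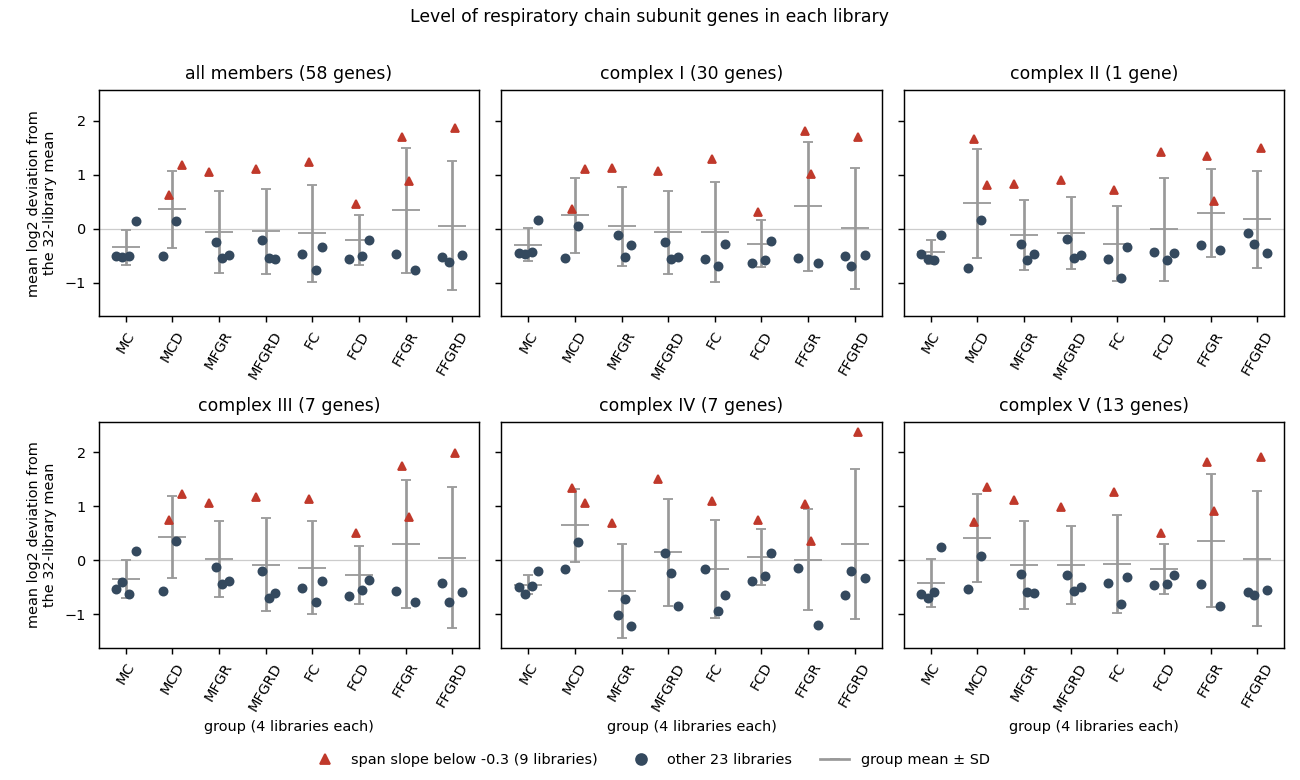
Mean log2 deviation of all 58 members and of each complex from the 32-library mean, on the y axis, for each of the 4 libraries of the 8 groups on the x axis; triangles are the 9 libraries with a span slope below -0.3, circles the other 23, and grey bars the group mean ± SD. The triangles lie above all circles in every panel, and the group means of all members lie between -0.349 for MC and 0.358 for MCD.

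The 9 libraries were defined by a measure taken without the members, a span slope below -0.3. For each library, the deviations of all other tested genes were regressed on the log10 of genomic span, the distance from the first start to the last end of a gene's transcripts. This span slope was between -0.845 and -0.32 in the 9 libraries, so that genes of short span were relatively high there, and between -0.062 and 0.337 in the other 23. The members are mostly short genes: their span had a median of 7.27 kb (0.35 to 113.41 kb), against 19.94 kb for all genes tested, and 49 of the 58 spanned 20 kb or less. Longer members went with the slope too. Pearson's r with it over the 32 libraries was -0.95 for NDUFB3 (92.72 kb) and -0.76 for NDUFS4 (113.41 kb). The other members above 20 kb lay within this range, except NDUFS1 at 0.34. Members of 20 kb or less ranged from -0.99 for ATP5PO to 0.01 for NDUFA4L2. The slope was the one on which the libraries had been split, at -0.3, so the libraries were also described separately on either side. Pearson's r between the member mean and the span slope was -0.91 over the 9 libraries (Spearman's rho -0.83, r -0.72 after dropping the 2 most extreme slopes) and -0.85 over the other 23 (rho -0.71, r -0.75). By complex, r over the 9 was -0.91 for complexes I and V and -0.87 for complex III, but -0.06 for the single gene of complex II (rho 0.23) and -0.37 for complex IV (rho 0.02), and over the other 23 it was between -0.87 and -0.53. These points share library, depth and normalization, and r is given as a description.

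Other short genes, which enter the span slope that defines the 2 sets of libraries, differed between them in the same direction, but by less than the members. Their list mean was between 0.122 and 0.366 in the 9 libraries and between -0.183 and 0.018 in the other 23. That of the members was between 0.454 and 1.85 and between -0.763 and 0.135. In 32 of the 58 members, 55.2%, every one of the 9 libraries had a higher value than every one of the other 23. Over all genes tested that held for 4.29%, and over the 6317 other genes with a span of 20 kb or less for 7.12%. Of the ribosomal protein genes it held for 23 of 55 cytosolic (41.8%) and 18 of 66 mitochondrial ones (27.3%). The mean of the mitochondrial ribosomal list was between 0.294 and 1.53 in the 9 libraries and between -0.579 and 0.146 in the others, and that of the cytosolic list between 0.192 and 2.58 and between -1.2 and 0.414, a wider range than that of the members. The 11 subunits encoded in mitochondrial DNA overlapped between the 2 sets of libraries, with list means from -0.269 to 1.84 and from -0.875 to 0.55. The summed value of the 6 preadipocyte and fibroblast markers, mostly collagen, was lower in the 9 libraries, 81390 to 291100, than in the other 23, 378700 to 1224000.

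**Figure D2:**
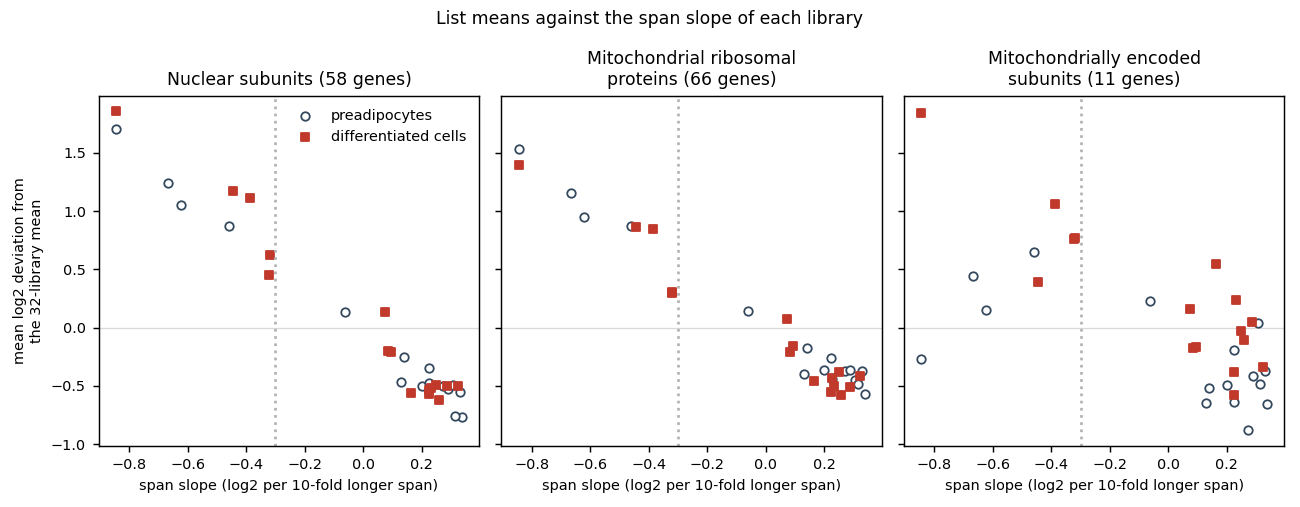
Mean log2 deviation of 3 gene lists (y axis) against the span slope of each of the 32 libraries (x axis, log2 change per 10-fold longer span); open circles are preadipocyte and filled squares differentiated libraries, and the dotted line marks -0.3. The nuclear subunits and the mitochondrial ribosomal proteins fall along the slope at both stages, while the mitochondrially encoded subunits fall along it less closely (r = -0.65 over the preadipocyte and -0.87 over the differentiated libraries, both sets spanning the dotted line), with FFGR replicate 2 at -0.269 at a slope of -0.845.

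The members moved together for the most part. After group means were subtracted, the median correlation over the 1653 pairs of members was 0.91 across the 32 libraries, and 0.22 once the span slope was also taken out. The within-group SD of a member had a median of 0.92 on the log2 scale, against 0.76 for all genes tested, and fell to 0.28 when the span slope was a covariate, against 0.44 for all genes. The ribosomal protein genes did likewise, from 1.26 to 0.32 for the cytosolic and from 0.78 to 0.29 for the mitochondrial list. COX4I1, the largest nuclear subunit of cytochrome c oxidase, was typical: its value was between 1951 and 5465 in the 23 libraries and between 3403 and 20425 in the 9, where FFGR replicate 2 held 20425 and FFGRD replicate 3 held 18122. ATP5F1A, the alpha subunit of ATP synthase and the complex V member with the highest mean, ranged only from 5716 to 16898. NDUFS1 and NDUFA4L2 did not follow the others, with median correlations to the other members of -0.29 and -0.01. NDUFS1, the largest iron-sulphur subunit of complex I, with a span of 31.18 kb, had values between 652 and 1266 in all 32 libraries and was not higher in the 9 (652 to 922) than in the other 23 (671 to 1266).

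Differentiation was compared within each of the 4 kinds of cells, on log2 of the value plus 1, with limma fitted over all 32 libraries and a call at an adjusted p below 0.05 and a fold change above 1.5. In control males, no member was called (limma, 3 members at an unadjusted p below 0.05), where 8.35% of all genes were called. No member was called in control females either (0 at an unadjusted p below 0.05), where 2.52% of all genes were. In growth-restricted males 1 member was called, NDUFA4L2, against 5.13% of all genes. In growth-restricted females no member was called (1 at an unadjusted p below 0.05, again NDUFA4L2), against 10.3% of all genes. Averaged over the 4 comparisons, 1 of the 58 members was called, NDUFA4L2, against 27.2% of all genes, and 1 passed the adjusted p alone, against 33.3%.

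Where 1 group of a comparison held more of the 9 libraries, most of the 58 members were higher in that group. The median log2 fold change of the 58 members was 0.74 in control males, with 56 of 58 positive, where MCD held 2 of the 9 libraries and MC none. It was -0.12 in control females and -0.03 in growth-restricted males, where each group held 1 of the 9 libraries. In growth-restricted females it was -0.29, where FFGR held 2 of the 9 libraries and FFGRD 1, and where 50 of 58 were negative. Cytosolic ribosomal protein genes had medians of 0.88, -0.18, 0.53 and -0.47 in the same 4 comparisons, mitochondrial ribosomal ones 0.48, -0.21, -0.11 and -0.36, and the other short genes 0.17, -0.02, 0.07 and -0.13, while the median over all genes was between -0.02 and 0.06. With the span slope as a covariate the members' medians were 0.15, -0.06, -0.08 and 0.02, and over the 4 comparisons the median was 0.03 without and -0.004 with it. Without the 9 libraries it was 0.03 over the 4 comparisons.

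**Figure D3:**
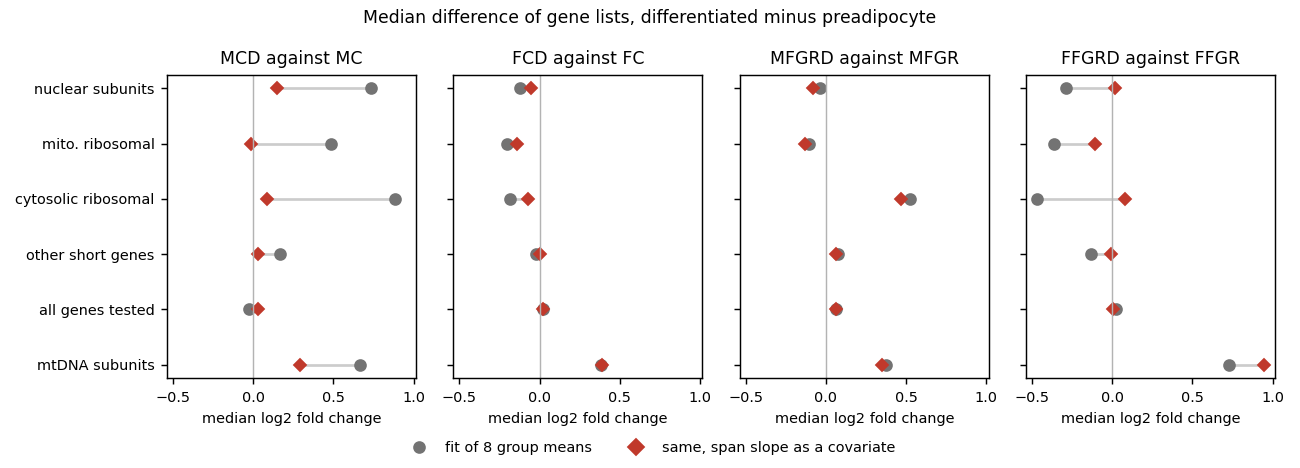
Median log2 fold change (x axis) of 6 gene lists (y axis) in the 4 comparisons of differentiated with preadipocyte libraries; grey circles are the fit of 8 group means and red diamonds the same fit with the span slope as a covariate. The nuclear subunits move from 0.74 to 0.15 in control males and from -0.29 to 0.02 in growth-restricted females, where both ribosomal lists also move toward 0, whereas the mitochondrially encoded subunits stay above 0 in all 4 comparisons.

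NDUFA4L2 was the member with the largest change. It encodes a paralog of the complex IV subunit NDUFA4, is known as a target of hypoxia-inducible factor, and lies on chromosome 3 (Oar_rambouillet_v1.0, positions 174015429 to 174017449, 1 transcript, ENSOARG00020001582). In control males the 4 preadipocyte libraries held 309, 148, 212 and 29.2 and the differentiated ones 2212, 2018, 1346 and 310. The lowest differentiated value was just above the highest preadipocyte value. In growth-restricted males the values were 47.6, 3.16, 149 and 5.09 before and 3688, 2285, 1359 and 49.3 after differentiation, with 3 of 4 differentiated libraries above all preadipocyte libraries. In control females they were 1405, 176, 82.6 and 39.9 before and 551, 307, 1051 and 1227 after, and the groups overlapped through FC replicate 1. In growth-restricted females they were 1356, 7.14, 19.2 and 10.2 before and 101, 1817, 6015 and 586 after, and overlapped through FFGR replicate 1.

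Over the 4 comparisons, NDUFA4L2 was higher in differentiated cells by 3.76 on the log2 scale (SE 0.76, limma adjusted p = 0.000314), and every one of the alternative fits kept this call, with log2 fold changes from 3.3 without the 9 libraries to 4.19 without FFGR replicate 1. The differences within a group were 5.39 in growth-restricted males (SE 1.52, adjusted p = 0.0336), 4.5 in growth-restricted females (adjusted p = 0.0572), 3.16 in control males (adjusted p = 0.229) and 2.0 in control females (adjusted p = 0.61). Without FCD replicate 4, the library with few adipocyte transcripts, the difference over the 4 comparisons was 3.69 (limma adjusted p = 0.000624). The call in growth-restricted males was lost when MFGR replicate 2 or 4 or MFGRD replicate 1, 2 or 3 was left out (adjusted p from 0.0923 to 0.127). In growth-restricted females a call was gained when FFGR replicate 1 (log2 fold change 6.2, adjusted p = 0.00611), FFGRD replicate 1, MFGRD replicate 4 or FC replicate 1 was left out, and the difference was 1.95 without the 9 libraries (adjusted p = 0.596). The responses of growth-restricted and control cells differed by 2.37 (SE 1.52, limma adjusted p = 0.988), and were not shown to differ.

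NDUFA4, the regular subunit, showed no such difference. Its values were 465, 395, 448 and 669 in MC and 378, 1544, 755 and 1307 in MCD, the 2 highest being the libraries of low span slope. In FFGR they were 330, 3384, 1146 and 403, and in FFGRD 439, 382, 2702 and 501. Over the 4 comparisons its log2 fold change was 0.13 (SE 0.35, limma adjusted p = 0.815), or 0.10 (SE 0.11) with the span slope as a covariate.

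**Figure D4:**
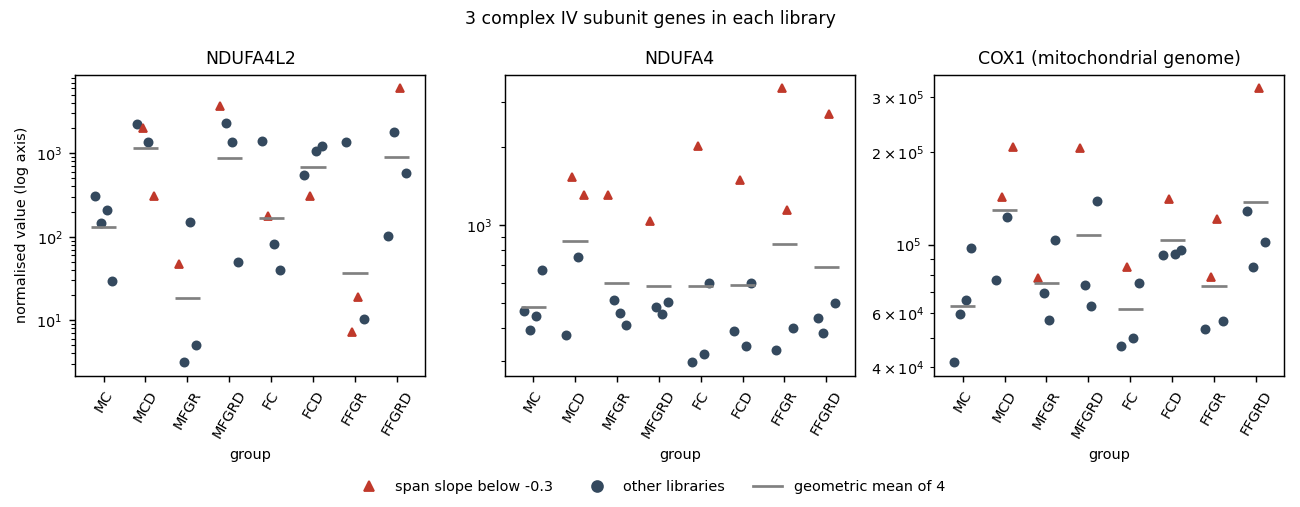
Normalised value on a log axis of 3 complex IV genes in each library of the 8 groups; triangles are the 9 libraries of low span slope, circles the other 23, and grey lines the geometric mean of 4. NDUFA4L2 spans 3.16 to 6015, with triangles from 7.14 to 6015. In NDUFA4 the triangles are the highest points of every group that has them. The mitochondrially encoded COX1 has a higher geometric mean in each differentiated group than in its preadipocyte group.

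Since the span slope took up most of the spread between libraries, differentiation was also fitted with it as a covariate, which moved the median standard error of the members from 0.31 to 0.099. In that fit 5 members were called over the 4 comparisons, 2 higher and 3 lower, against 33% of all genes, and 20 passed the adjusted p alone, 9 higher and 11 lower, against 54.2% of all genes. The members' shares lay below those of all genes. Within single groups, 4 members were called in control males (17.1% of all genes), 1 in control females (12.3%), 2 in growth-restricted males (16.2%) and 4 in growth-restricted females (20.5%). The slope also went with marker lists: over the differentiated libraries Pearson's r was -0.53 for the adipocyte and -0.73 for the brown adipocyte markers. Without the 9 libraries, over both stages, it was -0.13 and -0.22. How far the adjustment also removes differences in differentiation between libraries was not tested. The adjustment assumes a straight-line relation of each gene to the slope. NDUFA4L2 was also called over the 4 comparisons without it, as NDUFS4 was with the replicate block and NDUFS8 without the 9 libraries, while NDUFB10 and ATP5MC3 were called over the 4 comparisons with the adjustment and not in those 3 fits. With the replicate number as a block in the same fit, the same 5 members were called over the 4 comparisons, while ATP5MC3 and ATP5F1B in control males (limma adjusted p = 0.0658 and 0.0689), NDUFB10 in control females (0.0552) and NDUFA4L2 in growth-restricted females (0.062) were no longer called and NDUFA13 in growth-restricted females was (-0.72, adjusted p = 0.0308).

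Of the 30 complex I members, 9 passed the adjusted p as lower and 2 as higher in this fit, together a lower share than the 54.2% of all genes, and the median was -0.05. The 3 called lower were NDUFS8, NDUFB10 and NDUFS4. NDUFS8 is an iron-sulphur subunit of the hydrophilic arm and lies on chromosome 21 (47308285 to 47312296). Its values in MFGR were 1396, 496, 328 and 376 and in MFGRD 919, 294, 193 and 206, and in each group the 1 library of low span slope was the highest. Leaving those aside, all 3 MFGRD values were below all 3 MFGR values. In FFGR they were 352, 2792, 1379 and 250, and in FFGRD 214, 152, 1369 and 194. Among the libraries outside the 9, again all FFGRD values were below both FFGR values. In MC they were 311, 249, 296 and 535, in MCD 183, 707, 292 and 859, in FC 265, 1732, 283 and 427, and in FCD 195, 954, 183 and 326. The log2 fold change over the 4 comparisons was -0.57 (SE 0.39, limma adjusted p = 0.289), -0.61 with the covariate (SE 0.09, adjusted p = 3.6e-06) and -0.62 without the 9 libraries (adjusted p = 0.00488). Within groups it was called with the covariate in growth-restricted males (-0.79, adjusted p = 0.00366) and females (-0.79, adjusted p = 0.0031), and was -0.40 in control males and -0.46 in control females (adjusted p = 0.131 and 0.0898).

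NDUFB10, an accessory subunit of the membrane arm on chromosome 24, had 688, 3173, 547 and 729 in FC and 421, 678, 447 and 628 in FCD. All FC values but that of replicate 3 were above all FCD values. The difference in control females was -0.76 with the covariate (SE 0.24, limma adjusted p = 0.0393) and -0.86 without it (adjusted p = 0.636), and that over the 4 comparisons -0.61 (SE 0.12, adjusted p = 0.000169) and -0.58 (adjusted p = 0.213). NDUFS4, a subunit that stabilises the NADH-binding module and the member with the largest span, 113.4 kb on chromosome 16, had the lowest difference of complex I in the fit without the covariate (-0.64, SE 0.30, adjusted p = 0.101). It was called with the covariate (-0.66, SE 0.17, adjusted p = 0.00197) and with the replicate number as a block (-0.64, adjusted p = 0.0358). In FC it held 1498, 4446, 1078 and 1463 and in FCD 831, 590, 1016 and 1166, so that 3 of 4 FCD values lay below all FC values. NDUFA13, also known as GRIM-19, passed the adjusted p at -0.58 (adjusted p = 0.000206), just under the fold limit of 1.5.

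NDUFA2, a small peripheral-arm subunit on chromosome 5 (54137364 to 54139470), was the highest of complex I, at 0.53 without (SE 0.33, limma adjusted p = 0.235) and 0.50 with the covariate (SE 0.08, adjusted p = 8.66e-06), under the fold limit. Its values were 155, 139, 156 and 282 in MC and 206, 550, 334 and 921 in MCD. They were 144, 906, 385 and 106 in FFGR and 230, 179, 1307 and 201 in FFGRD. The covariate fit called it higher in control males (0.67, adjusted p = 0.00493) and growth-restricted females (0.70, adjusted p = 0.00258). NDUFA11 was the other complex I member higher at the adjusted p (0.29, adjusted p = 0.00882). NDUFS5, which had the highest mean of complex I, held 1273 to 10074, and its difference was 0.16 without and 0.14 with the covariate (adjusted p = 0.749 and 0.473). NDUFA5 rests on 1 transcript of 0.351 kb with values of 0.96 to 30.95, close to the filter.

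**Figure D5:**
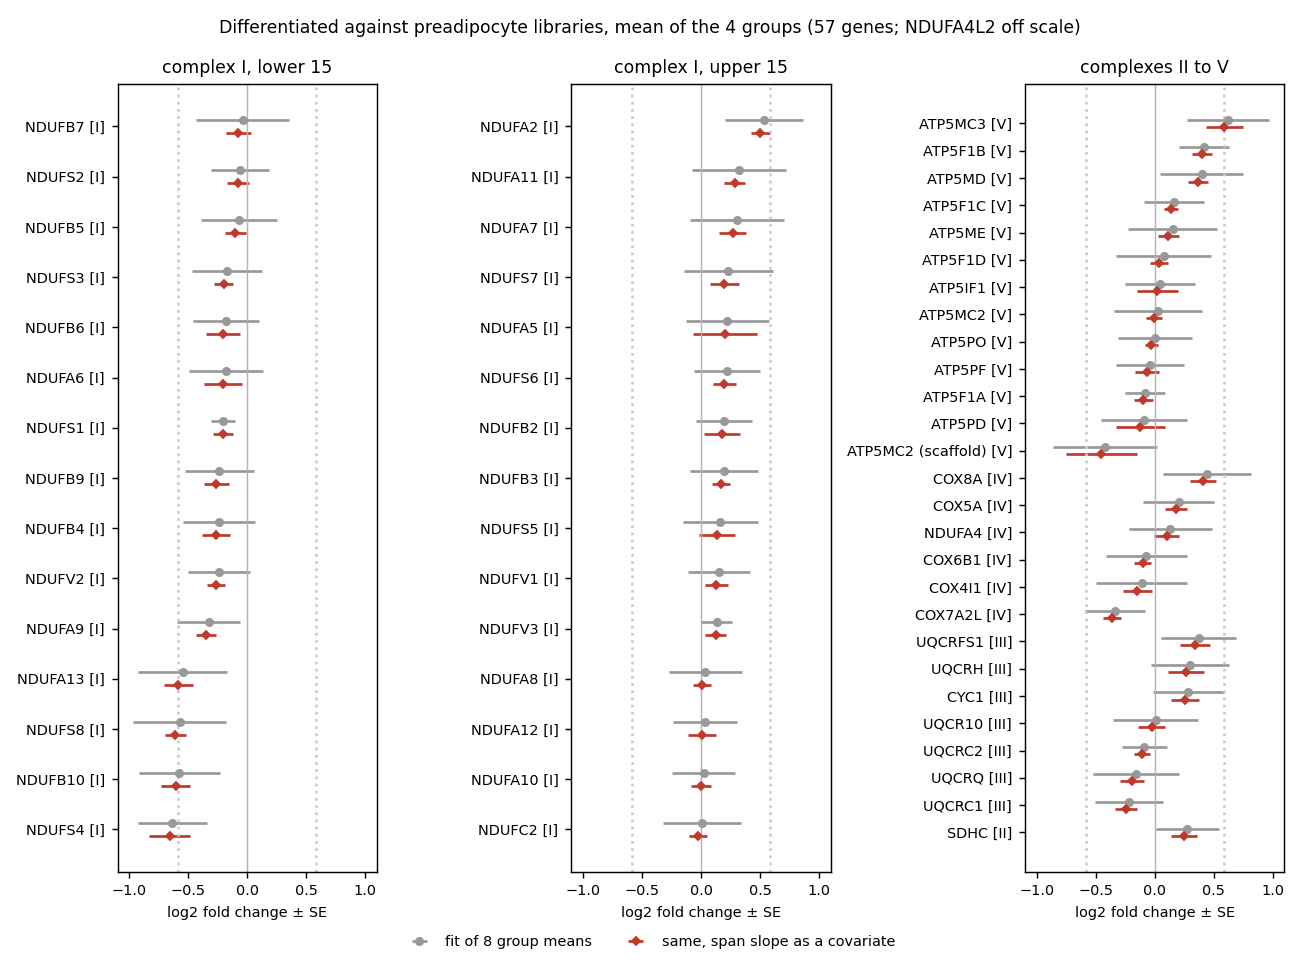
Log2 fold change ± SE (x axis) of 57 members (y axis, complex in brackets) over the 4 differentiation comparisons, NDUFA4L2 left out at 3.76; grey circles are the fit of 8 group means, red diamonds the same fit adjusted for the span slope, and dotted lines a fold of 1.5. The estimates hardly move between the fits, from -0.64 to -0.66 for NDUFS4 and from 0.62 to 0.59 for ATP5MC3, while the error bars shrink.

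SDHC, a membrane anchor of succinate dehydrogenase, was the only complex II gene with a named row. It held 222, 207, 205 and 285 in MC and 185, 970, 345 and 543 in MCD, and its difference over the 4 comparisons was 0.28 (SE 0.27, limma adjusted p = 0.472), or 0.25 with the covariate (adjusted p = 0.0548). SDHA, SDHB and SDHD were not analysed here. Among the 7 complex III members, UQCRFS1, the Rieske iron-sulphur protein, was the highest and UQCRC1, a core protein, the lowest. UQCRFS1 held 722, 2694, 1721 and 796 in FFGR and 1423, 702, 8489 and 868 in FFGRD, which overlap. With the covariate it was called in growth-restricted females (0.78, SE 0.26, adjusted p = 0.0297) and passed the adjusted p over the 4 comparisons (0.35, adjusted p = 0.0229), and without it the latter was 0.37 (adjusted p = 0.414). UQCRC1 was at -0.22 (adjusted p = 0.626), and at -0.25 with the covariate (adjusted p = 0.0269). UQCRH, the hinge protein and the complex III member with the highest mean, was at 0.30 without and 0.27 with it (adjusted p = 0.544 and 0.141).

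Apart from NDUFA4L2, the complex IV members ranged from -0.34 for COX7A2L, which takes part in assembling supercomplexes, to 0.44 for COX8A over the 4 comparisons (limma adjusted p = 0.351 and 0.398). Both passed the adjusted p with the covariate (-0.36, adjusted p = 0.000376, and 0.41, adjusted p = 0.00215), under the fold limit. COX7A2L held 669, 739, 814 and 1258 in MC and 640, 1401, 498 and 1446 in MCD. COX8A held 176, 152, 152 and 313 in MC and 178, 1162, 261 and 887 in MCD. In both genes the 2 highest MCD values were those of the libraries of low span slope. COX4I1 was at -0.11 (adjusted p = 0.866) and COX6B1 at -0.07 (adjusted p = 0.909).

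In complex V, 4 of 13 members passed the adjusted p with the covariate, all as higher, a lower share than the 54.2% of all genes. ATP5MC3, which encodes the membrane ring subunit c from chromosome 2 (145521380 to 145524612), was the only one past the fold limit. Its values were 345, 335, 260 and 650 in MC and 415, 3273, 645 and 1707 in MCD, and 457, 1071, 286 and 357 in FC against 447, 2561, 455 and 409 in FCD. The groups overlap in both sexes, through MC replicate 4 and FC replicates 1 and 2. Its difference was 0.62 (SE 0.35, limma adjusted p = 0.182), and 0.59 with the covariate (SE 0.15, adjusted p = 0.00208). In control males alone it was 1.56 (adjusted p = 0.184), 0.95 with the covariate (adjusted p = 0.035) and 1.56 with the replicate number as a block (adjusted p = 0.0439).

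ATP5F1B, the catalytic beta subunit, held 3274, 3472, 2757 and 3601 in MC and 3366, 9157, 5732 and 9105 in MCD. It was at 0.42 (SE 0.21, limma adjusted p = 0.131) and at 0.40 with the covariate (SE 0.08, adjusted p = 0.000266), and was called in control males in the latter fit (0.59, adjusted p = 0.0171). ATP5MD, a small subunit of the ATP synthase dimer, was at 0.40 and 0.37 (adjusted p = 0.426 and 0.000507) and was also called in control males with the covariate (0.67, adjusted p = 0.00606). ATP5F1C, the gamma subunit, was at 0.16 and 0.14 (adjusted p = 0.682 and 0.0462). ATP5IF1, the inhibitor of ATP hydrolysis, was at 0.05 and 0.02 (adjusted p = 0.931 and 0.924), with values of 1486, 1650, 1417 and 2356 in MC and 1676, 1274, 3340 and 5741 in MCD. ATP5F1A was at -0.08 and -0.10 (adjusted p = 0.763 and 0.315).

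Some members share their name with other gene IDs. The authors' quantification could have split reads between these IDs, whose sequences were not compared, so their values are uncertain. ATP5MC2 has a gene on chromosome 3 (ENSOARG00020018507, 559 to 5085) and a single-transcript copy of 0.432 kb on an unplaced scaffold (ENSOARG00020018477, 0 to 24.8). The scaffold copy had the lowest difference of complex V, -0.42 (SE 0.44, limma adjusted p = 0.52), and the gene on chromosome 3 was at 0.03. ATP5MD has 2 further IDs, both listed at 0 throughout. NDUFB3 has a second one, lying within the span of the first, that reached 70.28 in 1 library.

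The 8 matched IDs under the filter were those 3 and COX6A2, COX6B2, COX7B2, COX8C and ATP5MC1. COX6A2, the heart and muscle isoform, reached 1.45 at most. COX6B2, COX7B2 and COX8C, known from testis, reached 19.43, 25.47 and 11.27. ATP5MC1, another gene for subunit c, is listed at 0 in all 32 libraries. COX7A1, the marker left out of the members, held 1.08 to 62.1, and the highest value was that of FFGR replicate 2, a library of low span slope. Names such as COX5B, COX6A1, COX6C, COX7A2, COX7B and COX7C have no named row and were not analysed here, since 6683 gene IDs carry no name.

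The subunits encoded in mitochondrial DNA were more uniform in direction than the nuclear ones over the 4 comparisons. All 11 were positive, with a median of 0.50 (0.32 to 0.80), against 33 of 58 nuclear members and a median of 0.03. COX1, the catalytic subunit of complex IV, was the 1 of 11 called (27.2% of all genes), at 0.80 (SE 0.23, limma adjusted p = 0.00742), and ND4 of complex I passed the adjusted p at 0.52 (adjusted p = 0.0481). COX1 held 41692, 59651, 66244 and 97470 in MC and 76612, 142927, 123143 and 206894 in MCD. In FC it held 46951, 84656, 49786 and 74927, and in FCD 92338, 140335, 93191 and 95954. All FCD values were above all FC values, and 3 of 4 MCD values above all MC values. With the covariate the median was 0.48 and 8 of 11 passed the adjusted p (54.2% of all genes), and without the 9 libraries the median was 0.35 and 2 of 11 were called (28% of all genes). The difference between the nuclear and the mitochondrial lists was not tested. Genes of a list were measured in the same libraries, so the counts of positive genes are not counts of independent results.

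Other genes of the organelle were counted in the same way over the 4 comparisons, where 27.2% of all genes were called. Of 35 assembly factors, 2 were called higher, COA7 (0.96, limma adjusted p = 0.00018) and FOXRED1 (0.71, adjusted p = 0.0129), which assist complexes IV and I. Of 16 regulators of mitochondrial biogenesis, 2 were called higher, the coactivator PPARGC1A (1.46, adjusted p = 0.0129) and the mitochondrial DNA polymerase POLG (0.87, adjusted p = 0.000152). Of 12 tricarboxylic acid cycle genes, IDH3A (0.62, adjusted p = 4.54e-06) and OGDH (0.61, adjusted p = 1.93e-05) were called higher and SUCLG2 lower (-0.75, adjusted p = 9.09e-07). They encode a subunit of isocitrate dehydrogenase, of the alpha-ketoglutarate dehydrogenase complex and of succinyl-CoA ligase.

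Of 9 carriers and pores, 3 were called higher, UCP1, UCP2 and CYCS, against the same 27.2% of all genes. UCP1 was at or below 2.1 in all preadipocyte libraries and reached 680 in FFGRD replicate 3, 284 in MCD replicate 2 and 103 in MFGRD replicate 1, which are libraries of low span slope, and 126 in MCD replicate 3, which is not. CYCS, cytochrome c, was at 0.94 (adjusted p = 0.014 by limma). None of 66 mitochondrial ribosomal protein genes was called (limma, 8 at an unadjusted p below 0.05).

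Growth restriction was compared within each sex and stage. No member was called in MFGR against MC, FFGR against FC, MFGRD against MCD, FFGRD against FCD or over the 4 strata (limma, 0 members at an unadjusted p below 0.05 in each), and 0% of all genes were called in each, with 175, 169, 342, 192 and 346 of the 12737 genes at an unadjusted p below 0.05. The members' medians were 0.34, 0.48, -0.41, 0.26 and 0.16. With the span slope as a covariate they were 0.06, -0.01, -0.18, 0.05 and -0.02. By complex, the medians over the 4 strata were between 0.10 for complex IV and 0.20 for complex I, and between -0.10 and 0.01 with the covariate. NDUFA4L2 had the lowest values, -2.66 in MFGR against MC and -2.1 in FFGR against FC (limma adjusted p = 1 and 0.944), where 2 of 4 MFGR and 3 of 4 FFGR values were below all control values and the rest were not.

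Sex was compared in the same way, males against females. No member was called in MC against FC, MCD against FCD, MFGR against FFGR, MFGRD against FFGRD or over the 4 strata (limma, 0 members at an unadjusted p below 0.05), and again 0% of all genes were, with 135, 551, 355, 96 and 469 genes at an unadjusted p below 0.05. The medians of the members were -0.23, 0.59, -0.40, -0.11 and -0.05, and 0.06, 0.26, 0.11, -0.03 and 0.09 with the covariate.

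The differentiation response was also compared between growth-restricted and control cells and between males and females. No member and 0% of all genes were called for either difference (limma, 0 members and 132 and 116 genes at an unadjusted p below 0.05). The members' medians were -0.46 and 0.58, with 56 of 58 negative in the first and 57 of 58 positive in the second. With the span slope as a covariate they were -0.06 and 0.03. The cytosolic ribosomal protein genes had -0.33 and 0.96 in the same contrasts and the other short genes -0.12 and 0.17.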

How the data were processed

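Total RNA of 32 cell cultures was sequenced by the authors, who removed low-quality reads and checked them with FastQC (version 0.11.9 per the labels), quantified transcripts with Salmon against the Oar_rambouillet_v1.0 annotation and normalised them over all libraries with DESeq2. The deposited values are this normalised signal per transcript, not whole reads, so no count test was run and read depth per library is not known beyond the value sums. Columns with group means, fold changes and p-values of the authors' own comparisons were not used.

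Transcript values were summed per gene ID and kept at 10 or more in at least 4 libraries. log2(value + 1) was fitted with limma 3.58.1 in R 4.3.3 (8 group means, 32 libraries, trended empirical Bayes, Benjamini-Hochberg over 12737 genes). Fold changes are on that scale, which understates those of low genes. The fit of 8 group means was tested on simulated data for differentiation over the 4 groups, with noise independent between genes. The fits with a covariate or a block were not tested in this way. Members and lists were chosen with earlier results of these data known.

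Members named were those called in any of 17 contrasts, per complex those with the highest mean and the highest and lowest differentiation difference, and isoforms of 1 subunit. Other members named here, such as those past the adjusted p alone, were chosen after their values were seen. Genes of other lists were named as examples of their counts, up to the 2 largest rises and falls called.

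Same-numbered libraries of the 2 stages deviated together in every pair of MC, FC and MFGR (r from 0.16 to 0.67). In FFGR 3 of 4 pairs did (r from 0.33 to 0.56), with r = -0.4 for number 2. The span slope was not removed from these r, and for number 2 it was -0.845 in FFGR and 0.257 in FFGRD. They therefore cannot show whether a number marks the same animal. For differentiation, the replicate block paired the stages by number in all groups, FFGR included. Alternatives covered pseudocount, filter, gene summary, normalization, span bias, library weights, pairing and each library left out. The alternatives without the 9 libraries of low span slope, and with the block and the span slope together, were chosen after seeing the data.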

Additional observations from a re-analysis of the deposited data

Results flagged for a closer look

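Libraries far from the other 3 of their group were looked for in 8 measures over the 8 groups, 64 tests in all: the mean log2 deviation of all members, of each of the 5 complexes and of the mitochondrially encoded subunits, and the level of NDUFA4L2. The 9 found came from 3 libraries, none in the last 2 measures, and chance alone marks about 1 in 20 groups. In FFGRD replicate 3, a library of low span slope, all members stood at 1.854 (next library -0.491), complex I at 1.689 (-0.48), complex III at 1.997 (-0.421), complex IV at 2.374 (-0.2) and complex V at 1.907 (-0.554). In MC replicate 4, whose span slope of -0.062 was the lowest of the other 23, all members stood at 0.134 (-0.499), complex I at 0.158 (-0.433) and complex V at 0.251 (-0.591). In FCD replicate 2, of low span slope, SDHC of complex II stood at 1.414 (-0.43). FFGRD replicate 3 also had the highest mitochondrially encoded list mean, 1.841.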

How the results depend on the processing

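Direction was checked for NDUFA4L2 and, over the 4 comparisons, for the members with the highest mean and the highest and lowest difference per complex. No call among these changed direction in any alternative. Other called members, such as NDUFS8 and NDUFB10, were not checked for direction. The members called for growth restriction, sex and the 2 interactions stayed at 0 in every alternative. For differentiation, growth restriction and sex over the 4 groups or strata, the medians by complex moved by less than the mean within-group SD of the complex. That SD was up to 0.83, a wide limit that holds the spread along the span slope. Medians of single comparisons and of the interactions were not in this check. For differentiation, the span slope as a covariate gave 4 members in control males, 1 in control females, 2 in growth-restricted males, 4 in growth-restricted females and 5 over the 4 comparisons. With the replicate block the counts were 1 in control males and 2 over the 4 comparisons, and with the replicate block and the span slope together 2 in control males, 2 in growth-restricted males, 4 in growth-restricted females and 5 over the 4. The replicate block changed no other count of members. Library weights gave 5 in control males, 1 in control females and 2 over the 4, and the curve on span subtracted within each library 1 in growth-restricted females. Each comparison fitted on its own libraries gave 1 in control males and 0 in growth-restricted males. Without the 9 libraries of low span slope there were 0 in growth-restricted males and 2 over the 4. Leaving out 1 library at a time gave 0 to 1 in growth-restricted males, 0 to 1 in growth-restricted females and 1 to 2 over the 4, where the second was NDUFS4 without MFGRD replicate 1 or FFGRD replicate 3. The causes were not tested. Depth in reads is unknown, so low members such as NDUFA5 carry counting error of unknown size.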
